A study of Rattus norvegicus with 13 samples.

Results

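The protein genes of the cytosolic ribosome were followed in the left ventricle of rats that overexpress ADBR3, the label's spelling for the β3-adrenergic receptor gene Adrb3, and of wild-type (WT) rats. Members were all array probes whose gene name begins with Rpl or Rps and a digit, plus those of Rplp0, Rplp1, Rplp2 and Rpsa, without the kinases named Rps6k. This gave 168 probes of 96 gene names among the 30367 probes of 26115 gene names that are not controls. The large subunit accounted for 108 probes of 59 names and the small subunit for 60 probes of 37 names. The name rule also took in Rps19bp1, which codes for a protein that binds Rps19 and is not part of the ribosome.

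The tissue was left ventricle of male rats aged 45 weeks, labelled with a single dye (Cy3) and measured on 13 Agilent arrays, 7 from overexpressing and 6 from WT rats. The series describes 5 overexpressing and 4 WT rats. Hearts 1 and 2 of each group are repeated labelings of RNA of 1 rat and were averaged, while overexpressing heart 4 and WT heart 5 repeat a hybridization whose partner is not named and were kept out of the tests. Rats are named here by group and heart number. The promoter that drove ADBR3, the strain and the number of founder lines are not stated in the labels.

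The cytosolic ribosome is built from a small subunit, which reads the mRNA, and a large subunit, which joins amino acids, each made of ribosomal RNA and a set of proteins named Rps and Rpl. Rat cells make these proteins in near-equal amounts, and their mRNAs begin with a short tract of pyrimidines that lets growth signals through mTORC1 control how strongly they are translated. In heart muscle, ribosome production is known to go up when cells enlarge. Some ribosomal proteins have a related copy with restricted expression. Rpl3l replaces Rpl3 in striated muscle, Rpl10l replaces the X-linked Rpl10 in male germ cells, and Rps4x has relatives named for the Y chromosome. Mammalian genomes also carry many processed pseudogenes of ribosomal protein genes.

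Each probe is a single strand of 60 bases, and the letters matter for this family because related copies and processed pseudogenes differ from the parent gene at few bases. The probes that follow belong to genes the results turn on. The capitals in the first Rpl36 probe mark AATAAA, the signal for adding the poly(A) tail, and the other probes shown hold neither AATAAA nor ATTAAA. The AATAAA and ATTAAA forms occurred in 51 of the 168 member probes (30.4%), against 11.2% of all probes on the array. On the opposite strand the shares were 2.38% of member probes and 4.78% of all probes.
Rps4y2 A_64_P037994: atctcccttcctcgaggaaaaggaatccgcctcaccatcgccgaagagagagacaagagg
Rps4x A_42_P728472: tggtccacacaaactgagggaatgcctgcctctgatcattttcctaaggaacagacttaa
Rpl10l A_64_P078568: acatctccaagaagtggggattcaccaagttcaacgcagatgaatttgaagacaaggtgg
Rpl3 A_64_P062842: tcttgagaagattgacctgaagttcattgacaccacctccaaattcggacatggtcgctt
Rpl3l A_64_P011099: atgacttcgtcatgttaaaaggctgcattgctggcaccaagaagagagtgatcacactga
Rpl30l1 A_64_P120100: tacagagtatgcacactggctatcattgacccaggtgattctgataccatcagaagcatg
Rpl36 A_64_P032629: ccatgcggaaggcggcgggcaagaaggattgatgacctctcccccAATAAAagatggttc
Rpl36 A_64_P129629: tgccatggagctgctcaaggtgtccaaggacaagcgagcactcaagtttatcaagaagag
Rps7 A_64_P093159: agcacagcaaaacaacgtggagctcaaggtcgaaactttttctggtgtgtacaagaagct

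Positions in the rat build rn4, per the file headers, placed the Rps4y2 probe at chr4:185978154-185978213 on the plus strand. The gene thus lies on an autosome in this build, in spite of its name. The Rps4x probe lies at chrX:90252399-90252458 on the minus strand, the Rpl10l probe at chr6:87930295-87930354 on the minus strand and the Rpl30l1 probe at chr13:93180470-93180529 on the plus strand. The Rpl3 probe lies at chr7:118314786-118314845 on the minus strand and the Rpl3l probe at chr10:13991825-13991884 on the plus strand. The Rps7 probe spans a junction, chr6:46512040-46512391 on the minus strand, while both Rpl36 probes lie on sequence that rn4 does not assign to a chromosome. The longest run of bases that any of the Rps4y2, Rps4x, Rpl10l, Rpl3 and Rpl3l probes shares with a member probe of another gene name is 11. Only probe sequences were compared, and probes of related genes need not cover the same stretch. The run thus does not tell whether a probe can read the transcript of a related gene, which was not tested.

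Levels are log2 of the spot's processed signal minus the array's 75th percentile. A level of 0 is thus the signal below which 75% of the array's spots lie, controls left out. Levels of different probes are not amounts that can be compared. The 75th percentile lay between 760.4 and 908.7 signal units, and no array had a saturated spot. The heart muscle genes Myh6, Myl2 and Tnnt2 were well above background on every array, and so was Myl7, the myosin light chain that marks atrial muscle, with mean levels of 5.56 in overexpressing and 5.63 in WT rats. Adrb3 itself was well above background on 1 of 7 overexpressing arrays and on 0 of 6 WT arrays, so its single probe does not check the overexpression. The number of arrays limits the precision. In whole ventricle, fewer cells of a type and less RNA per cell cannot be told apart. The labels call the arrays of a group separate rats, apart from the repeats, so the p-values measure the spread between rats.

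Ribosomal protein transcripts were measured in nearly every sample. Of the 168 probes, 162 probes of 92 names passed the filter of being well above background in at least 4 of 9 rats, and 161 of them did so in all 9 rats. The difference between overexpressing and WT rats was close to 0 across the family: 75 probes were higher and 87 lower, with a median difference of -0.0018 on the log2 scale, beside -0.0094 over all 17587 probes tested. With arrays scaled to their median instead, 123 were higher and the median was 0.040, beside 0.032 over all probes. Differences within 0.1 either way were found for 141 of the 162 member probes (87.0%) and for 58.1% of all probes tested. The middle 50% of the member differences lay between -0.039 and 0.034, against -0.099 and 0.064 for all probes.

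No ribosomal protein probe passed an adjusted p of 0.05 in limma with Benjamini-Hochberg adjustment over all probes tested, and the smallest adjusted p of a member was 0.433. Over the whole array 1 probe passed, or 0.00569%. At an unadjusted limma p under 0.05 there were 6 member probes, 3 higher (Rpl15, Rpl38 and Rps4x) and 3 lower (both Rps4y2 probes and 1 of Rpl22l1), which is 3.70% of the members beside 9.2% of all probes tested (3.12% higher and 6.08% lower). The rats of the groups did not overlap for 3 member probes (1.85%), against 3.44% of all probes. By either count the members' share was no larger than that of the array.

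The absence of calls came with narrow intervals. The 95% interval of the difference had a median half-width of 0.124 over the members and 0.198 over all probes, and it lay wholly within 1.3-fold in either direction for 153 of 162 members (94.4%), against 64.5% of all probes. The median standard deviation within groups was 0.068 for members and 0.135 for all probes tested. Member probes were also bright, with a median level of 5.50 against -1.07 for all probes tested, and the part of brightness in the narrow intervals was not tested. The subunits were alike in this description, with 50 probes higher and 53 lower (median -0.0011) for the large subunit and 25 higher and 34 lower (median -0.0045) for the small subunit.

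**Figure D1:**
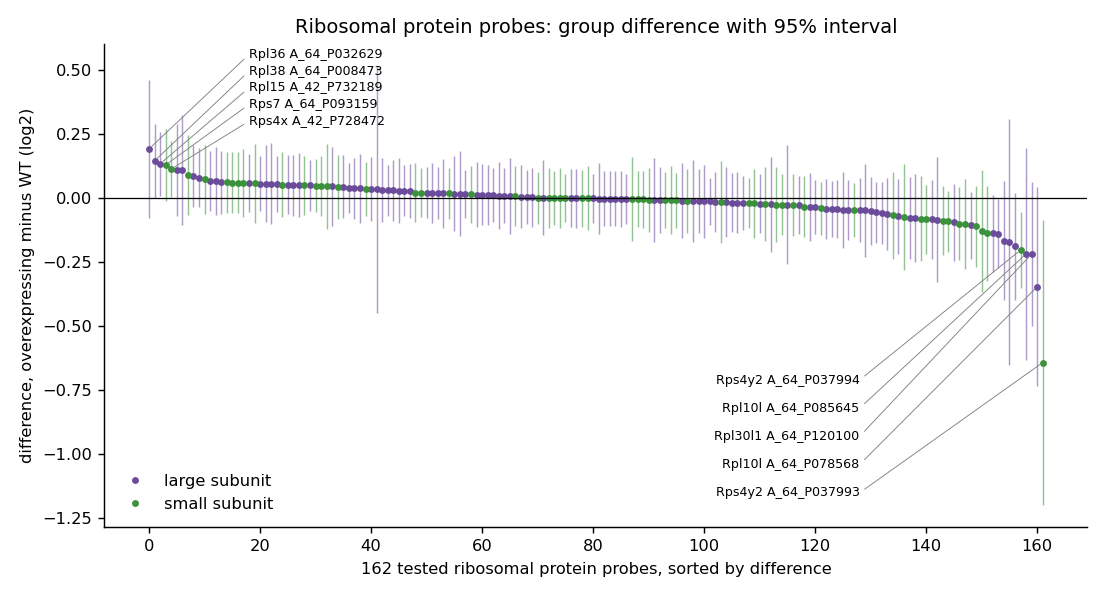
Difference between overexpressing and WT rats (y axis, log2) for each of the 162 tested ribosomal protein probes, sorted along the x axis from highest to lowest; points are the differences, vertical lines the 95% intervals, and colour gives the subunit. Most points lie within 0.1 of the zero line, and the widest departures, labelled by gene and probe, are Rps4y2 and Rpl10l on the lower side and Rpl36 on the higher side.

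Both probes of Rps4y2 and both of Rpl10l were among the 5 widest negative differences, beside that of Rpl30l1. The list of ribosomal proteins with tissue-restricted relatives had 17 of 18 names on the array. Of its 30 probes 28 were tested, 14 higher and 14 lower, and none passed the adjusted threshold. An unadjusted limma p under 0.05 was found for 4 of the 28, beside 9.2% of all probes tested. These were both Rps4y2 probes, Rps4x and 1 probe of Rpl22l1, so they are not 4 separate genes. The list was chosen with earlier results of these data known, and its share was not tested against that of the array. Rps4y2, a small subunit protein related to Rps4x, had 2 probes. The first, A_64_P037993, read -0.57, -0.39, -0.14, 0.090 and -0.23 in overexpressing rats 1, 3, 5, 6 and 7, and 0.18, -0.22, 0.51 and 1.11 in WT rats 1, 3, 4 and 6. WT rat 3 lay among the overexpressing rats, so the groups overlapped, and WT rat 6 was far above all others. The means were -0.25 ± 0.25 in overexpressing rats (SD, n = 5) and 0.40 ± 0.56 in WT rats (SD, n = 4), a difference of -0.64 ± 0.246 (SE), with an adjusted limma p of 0.502 and an exact permutation p of 0.048 (two-sided). Without WT rat 6 the difference was -0.40.

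The second Rps4y2 probe, A_64_P037994, lies in the letters shown above. It read 2.87, 2.86, 2.95, 3.01 and 2.95 in overexpressing rats 1, 3, 5, 6 and 7, and 3.06, 3.16, 3.02 and 3.28 in WT rats 1, 3, 4 and 6. Every overexpressing rat lay below every WT rat, with overexpressing rat 6 and WT rat 4 nearly level. The difference was -0.20 ± 0.065 (SE), with an adjusted limma p of 0.433 and an exact permutation p of 0.00794, the smallest that 126 splits of 5 against 4 rats can give. The array of overexpressing heart 4, kept out of the test, read 3.04 and lay between WT rats 4 and 1. The difference was negative for the Rps4y2 probes within each slide that held both groups, at -1.0, -0.74 and -0.60 for the first probe and -0.17, -0.071 and -0.025 for the second, whose difference was -0.13 with slide as a block. These slides held, in order, 1, 1 and 3 overexpressing arrays against 3, 1 and 1 WT arrays. The first held both labelings of WT rat 1. The last took in both kept-out arrays, with WT heart 5 as its only WT array, so the slides may share rats.

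Rps4x, the X-linked form of the same small subunit protein, read the other way. Its probe, spotted 10 times on each array, gave 3.88, 3.93, 3.92, 4.02 and 3.85 in overexpressing rats 1, 3, 5, 6 and 7, and 3.82, 3.80, 3.83 and 3.77 in WT rats 1, 3, 4 and 6. The groups did not overlap, and overexpressing rat 7 and WT rat 4 were the closest across them. The difference of 0.11 ± 0.048 (SE) had an adjusted limma p of 0.533 and an exact permutation p of 0.016, and it was 0.053 with the authors' deposited values. Neither gene passed the adjusted threshold, and the difference between their responses was not tested.

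Rpl10l, the autosomal relative of the large subunit protein Rpl10, was the other copy with wide differences. Probe A_64_P078568 read -0.90, -0.59, -0.93, -0.56 and -0.92 in overexpressing rats 1, 3, 5, 6 and 7, and -0.050, -0.95, -0.40 and -0.34 in WT rats 1, 3, 4 and 6. Probe A_64_P085645 read 0.85, 1.11, 1.03, 1.24 and 1.09 in overexpressing rats 1, 3, 5, 6 and 7, and 1.56, 0.63, 1.46 and 1.48 in WT rats 1, 3, 4 and 6. In both probes WT rat 3 was the lowest of all 9 rats and the other WT rats lay above every overexpressing rat. The differences were -0.35 ± 0.172 and -0.22 ± 0.183 (SE), with adjusted limma p of 0.565 and 0.725, and without WT rat 3 they were -0.52 and -0.43. Without WT rat 1 they were -0.22 and -0.12, and with slide as a block -0.63 and -0.54. The kept-out arrays read -0.73 and 1.1 for overexpressing heart 4 and -0.42 and 1.4 for WT heart 5. They repeat hybridizations and add no rat. Rpl10 itself had 3 probes with differences of -0.0076, -0.019 and -0.033.

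**Figure D2:**
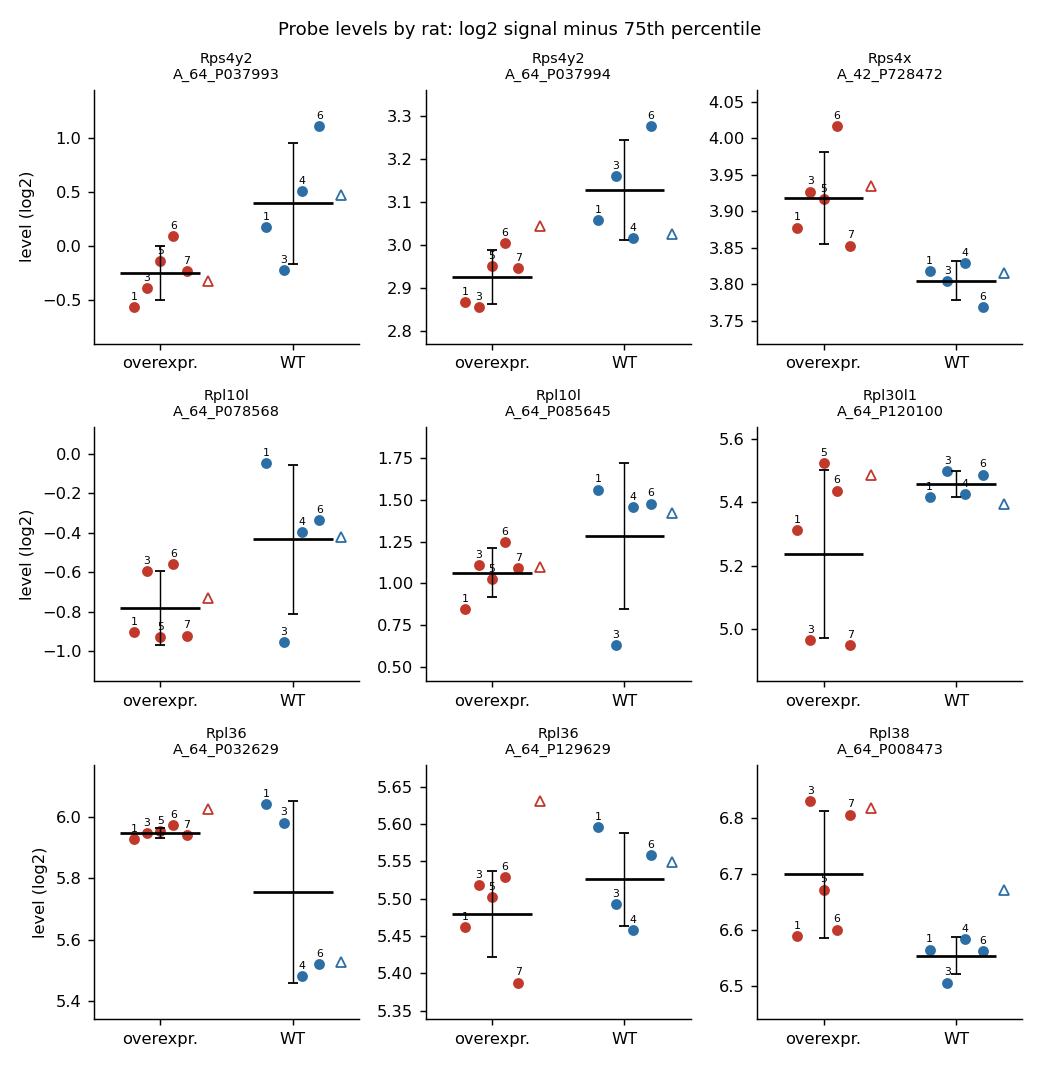
Levels (y axis, log2 of signal minus the array's 75th percentile) of 9 probes in overexpressing rats (red, left) and WT rats (blue, right); points are rats with their heart number, bars are the mean and SD, and open triangles are the kept-out arrays of overexpressing heart 4 and WT heart 5. WT rats 4 and 6 sit near 5.5 for the Rpl36 probe A_64_P032629 while every other rat sits at 5.93 or above, and overexpressing rats 3 and 7 are apart from the rest for Rpl30l1.

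Rpl3l, the striated muscle form of the large subunit protein Rpl3, was measured on every array. It read 4.70, 4.89, 4.81, 4.74 and 4.78 in overexpressing rats 1, 3, 5, 6 and 7, and 4.76, 4.74, 4.67 and 4.69 in WT rats 1, 3, 4 and 6. Rpl3 read 4.06, 4.09, 4.03, 4.42 and 4.01 in overexpressing rats, in the same order, and 3.90, 4.10, 3.93 and 4.12 in WT rats. The ranges of the groups overlapped for both genes. Rpl3l averaged 4.78 ± 0.072 in overexpressing rats and 4.71 ± 0.042 in WT rats (SD, n = 5 and 4), and Rpl3 averaged 4.12 ± 0.169 in overexpressing rats and 4.01 ± 0.113 in WT rats. The Rpl3 mean was carried by overexpressing rat 6, since the other overexpressing rats lay between 4.01 and 4.09.

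The remaining pairs of this list differed little. Rpl22, a large subunit protein that also binds RNA outside the ribosome, had differences of -0.042 and 0.015 in its 2 probes. Its relative Rpl22l1 had a difference of -0.026 in one probe, while the other, with a level near -1.2, read -1.30 ± 0.039 in overexpressing rats and -1.16 ± 0.111 in WT rats (SD, n = 5 and 4), a difference of -0.14. Rpl39 differed by 0.055 and 0.050, Rpl36a by 0.056 to 0.080 over 3 probes, and Rpl26 by 0.020 and 0.049. Rpl7 differed by -0.017 and -0.013 and Rpl7l1 by 0.037, while Rps27 differed by -0.011 and 0.021 and its relative Rps27l by 0.059. All of these differences were under 0.15, and Rpl26l1 was the only listed name with no probe.

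Rpl39l, the relative of Rpl39 known from male germ cells, was the member nearest the limit of detection that still reached it on several arrays. It was well above background on 4 of 7 overexpressing arrays and 1 of 6 WT arrays and was not tested. Its levels were -3.51, -4.13, -6.84, -6.11 and -5.77 in overexpressing rats 1, 3, 5, 6 and 7, and -4.76, -6.14, -6.82 and -4.74 in WT rats 1, 3, 4 and 6. The groups overlapped over most of this range, and no fold is given. The other untested probes were those of Rpl17l1, Rpl31l1 and Rps19bp1 and 1 probe each of Rpl28 and Rpl36a. Rpl28 and Rpl36a had other probes that were tested, with differences between 0.0055 and 0.080.

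Rpl36, a large subunit protein, split the WT rats. Probe A_64_P032629, which covers the end of the coding sequence and the poly(A) signal, read 5.93, 5.95, 5.95, 5.97 and 5.94 in overexpressing rats 1, 3, 5, 6 and 7, and 6.04, 5.98, 5.48 and 5.52 in WT rats 1, 3, 4 and 6. WT rats 4 and 6 formed a low set, and no rat fell between 5.52 and 5.93. The kept-out array of WT heart 5 was also low, at 5.53, but it repeats a hybridization and adds no rat. The difference of 0.19 ± 0.120 (SE) had an adjusted limma p of 0.631 and was 0.10 without WT rat 4, 0.11 without WT rat 6 and 0.29 without WT rat 1. The second Rpl36 probe, further upstream, read between 5.39 and 5.53 in overexpressing rats and between 5.46 and 5.60 in WT rats, with no such split.

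Rpl30l1, named for its likeness to the large subunit protein Rpl30, split the overexpressing rats instead. It read 5.31, 4.97, 5.52, 5.44 and 4.95 in overexpressing rats 1, 3, 5, 6 and 7, and 5.42, 5.50, 5.42 and 5.49 in WT rats 1, 3, 4 and 6. Overexpressing rats 3 and 7 were lower than all other rats, and the rest overlapped. The difference was -0.22 ± 0.125 (SE) with an adjusted limma p of 0.603, and -0.15 without either of these rats alone. Overexpressing rats 3 and 7 were scanned on the same day, with WT rat 4 and 1 labeling of overexpressing rat 1. On that day the difference was -0.36, and on the other day, which took in both kept-out arrays, 0.0042. Within the slides that held both groups it was -0.098, -0.47 and 0.086. With scan day as a block it was -0.16, and with slide as a block -0.30. What sets rats 3 and 7 apart was not tested. The 3 probes of Rpl30 differed by 0.034, -0.028 and 0.0092.

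Rpl38, a large subunit protein that in mice is needed for translation of Hox mRNAs, was high in the same rats 3 and 7. Probe A_64_P008473 read 6.59, 6.83, 6.67, 6.60 and 6.81 in overexpressing rats 1, 3, 5, 6 and 7, and 6.57, 6.51, 6.58 and 6.56 in WT rats 1, 3, 4 and 6. The groups did not overlap, though overexpressing rat 1 and WT rat 4 were nearly level, and the kept-out array of WT heart 5 read 6.67. The kept-out array of overexpressing heart 4 read 6.82, as high as rats 3 and 7, but for Rpl30l1 it read 5.49 and was not low with them. The difference was 0.15 ± 0.064 (SE) with an adjusted limma p of 0.543, and the other 3 probes of Rpl38 differed by 0.045, -0.011 and 0.056. In each of these 3 probes overexpressing rats 3 and 7 were again the highest of all 9 rats. These rats share a scan day, as said for Rpl30l1, and overexpressing heart 4 was scanned on the other day. For probe A_64_P008473 the difference was 0.18 on the day of rats 3 and 7 and 0.081 on the other day. Within the slides that held both groups, in the order given for Rps4y2, it was -0.034, 0.22 and 0.025. With scan day as a block it was 0.11, and with slide as a block 0.098.

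Rpl15 and Rps7 complete the 5 widest positive differences. Rpl15, a large subunit protein, was spotted 10 times per array and read -2.24, -2.22, -2.19, -2.10 and -2.19 in overexpressing rats 1, 3, 5, 6 and 7, and -2.41, -2.36, -2.28 and -2.23 in WT rats 1, 3, 4 and 6. Rps7, a small subunit protein, read 5.48, 5.63, 5.72, 5.69 and 5.75 in overexpressing rats and 5.49, 5.53, 5.49 and 5.58 in WT rats, in the same orders. In both genes the groups overlapped through overexpressing rat 1. The differences were 0.13 ± 0.055 and 0.13 ± 0.063 (SE), with adjusted limma p of 0.525 and 0.556. With normexp background correction that of Rpl15 was 0.079, and over rats 1, 3 and 6 of each group that of Rps7 was 0.066. Within the slides that held both groups, in the order given for Rps4y2, the Rpl15 difference was 0.098, 0.090 and 0.13. That of Rps7 was -0.046, 0.25 and 0.14.

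The stalk proteins, which recruit elongation factors to the large subunit, and the proteins near the mRNA channel of the small subunit had differences near 0. This list of 7 names had 14 probes, all tested, with 7 higher and 7 lower and a median difference of 0.00075. Rplp0, the base of the stalk, averaged 7.75 ± 0.090 in overexpressing rats and 7.74 ± 0.090 in WT rats (SD, n = 5 and 4) in one probe and differed by 0.017 in the other. Rplp1 averaged 6.27 ± 0.076 in overexpressing rats and 6.27 ± 0.014 in WT rats, and Rplp2 averaged 7.12 ± 0.088 in overexpressing rats and 7.17 ± 0.061 in WT rats. Of the stalk partners, 1 probe of Rpl12 had the widest difference of the list, -0.17, while its other probe differed by 0.0026. Rps2 and Rps3, at the mRNA entry, differed by -0.021 to 0.060 over 6 probes, and Rpsa, also known as the laminin receptor, by -0.080 and -0.067.

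Proteins known for work outside the ribosome also had differences near 0. Of 11 names listed, 9 were on the array, with 16 of 17 probes tested, 5 higher and 11 lower and a median difference of -0.0082. Rps6, the substrate of the S6 kinases, averaged 5.31 ± 0.057 in overexpressing rats and 5.32 ± 0.042 in WT rats (SD, n = 5 and 4) in one probe and 5.27 ± 0.050 and 5.27 ± 0.057 in the other. Rpl5 and Rpl11, which bind Mdm2 when ribosome assembly is disturbed, differed by -0.017 for Rpl5 and by 0.052 and -0.0017 for Rpl11. Rps19 differed by -0.0088 to 0.060 over 3 probes and Rps27a, made as a fusion with ubiquitin, by 0.00074 and -0.033. Rpl13a and Rpl32, in common use as reference genes for quantitative PCR, differed by 0.0050 for Rpl13a and by -0.079 to -0.0079 over the 4 probes of Rpl32, and Rpl4 differed by -0.013.

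**Figure D3:**
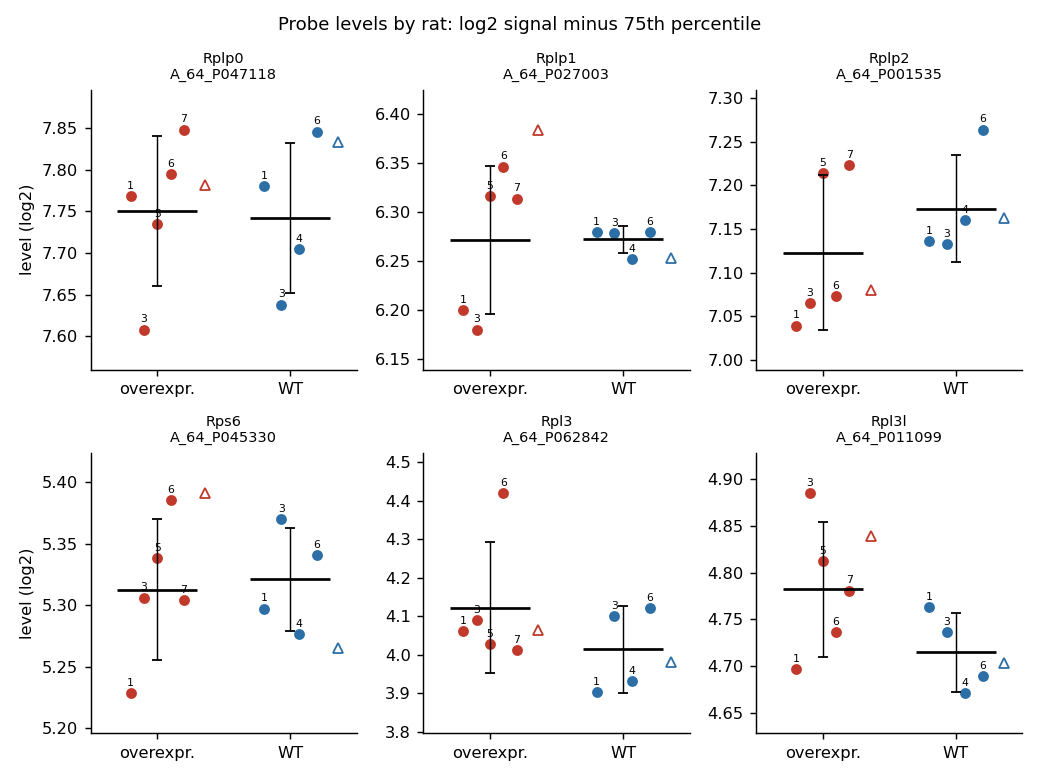
Levels (y axis, log2 of signal minus the array's 75th percentile) of Rplp0, Rplp1, Rplp2, Rps6, Rpl3 and Rpl3l in overexpressing rats (red, left) and WT rats (blue, right); points are rats with their heart number, bars are the mean and SD, and open triangles are the kept-out arrays. The ranges of the groups overlap in all 6 panels.

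The rats differed from each other more evenly over the family than the groups did. Each rat's level of a probe was set against that probe's mean over the 9 rats. In overexpressing rat 1, 144 of 162 member probes (88.9%) lay below their mean, with a median deviation of -0.055, against 50.4% of all probes tested. The 2 labelings of this rat gave the same picture on different slides and scan days, with 134 and 131 members below and medians of -0.055 and -0.056. The median was -0.055 over the large and -0.056 over the small subunit of this rat.

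Other rats moved the opposite way. Overexpressing rats 5 and 6 had 47 and 43 members below their mean, with medians of 0.031 and 0.046, while overexpressing rats 3 and 7 had 92 and 87 below, near the middle. Among WT rats, rat 6 had 39 members below and a median of 0.040, rat 4 had 115 below and a median of -0.036, and rats 1 and 3 had 73 and 76 below. Each group thus held a rat in which most members were low and a rat in which most were high. Over all probes tested the median deviations of the rats lay between -0.012 and 0.019. Over the 2016 other probes with a mean level above 3 the median deviation was -0.035 in overexpressing rat 1, 0.034 in WT rat 6 and -0.0094 in overexpressing rat 6. The part of brightness in the shift of a rat was not tested.

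Slides and cell type markers were set beside these values. The median member difference within the 3 slides that held both groups was -0.063 on the slide that held overexpressing heart 1 and 0.036 and 0.061 on the other slides, and within the 2 scan days it was 0.015 and 0.013. The slide at 0.036 held 1 array of each group. The slide at 0.061 and the scan day at 0.015 took in both kept-out arrays. Markers of lymphocytes, whose 7 tested genes of 15 listed averaged between -3.16 and -2.72 in overexpressing rats and between -2.78 and -2.27 in WT rats, were lowest in overexpressing rat 1. So were markers of macrophages, 11 of 12 tested, at -0.82 in that rat within ranges of -0.82 to -0.45 in overexpressing rats and -0.72 to -0.34 in WT rats, and markers of erythroid cells, 7 of 10 tested, at 1.72 within ranges of 1.72 to 2.21 in overexpressing rats and 1.75 to 2.57 in WT rats. Overexpressing rat 6, with the highest member median, was the highest rat for atrial markers (6 of 7 tested, 1.72 to 3.28 in overexpressing and 1.77 to 2.58 in WT rats) and fibroblast markers (10 tested, 1.08 to 1.48 in overexpressing and 0.93 to 1.23 in WT rats). It was also the highest for smooth muscle and pericyte markers (7 of 8 tested, 1.09 to 1.59 in overexpressing and 1.16 to 1.32 in WT rats) and adipocyte markers (6 of 9 tested, -1.28 to 1.04 in overexpressing and -0.89 to 0.15 in WT rats). Endothelial markers, all 10 tested, spanned 0.46 to 0.63 in overexpressing rats and 0.58 to 0.67 in WT rats. Overexpressing rat 1, with the lowest member median, was the highest overexpressing rat for these endothelial markers. It read 1.44 for fibroblast markers and 1.38 for smooth muscle and pericyte markers, above every WT rat in both. Cardiomyocyte markers, all 10 tested, spanned 7.15 to 7.25 in overexpressing rats and 7.01 to 7.25 in WT rats. The part of cell makeup in the ribosomal protein values was not tested.

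**Figure D4:**
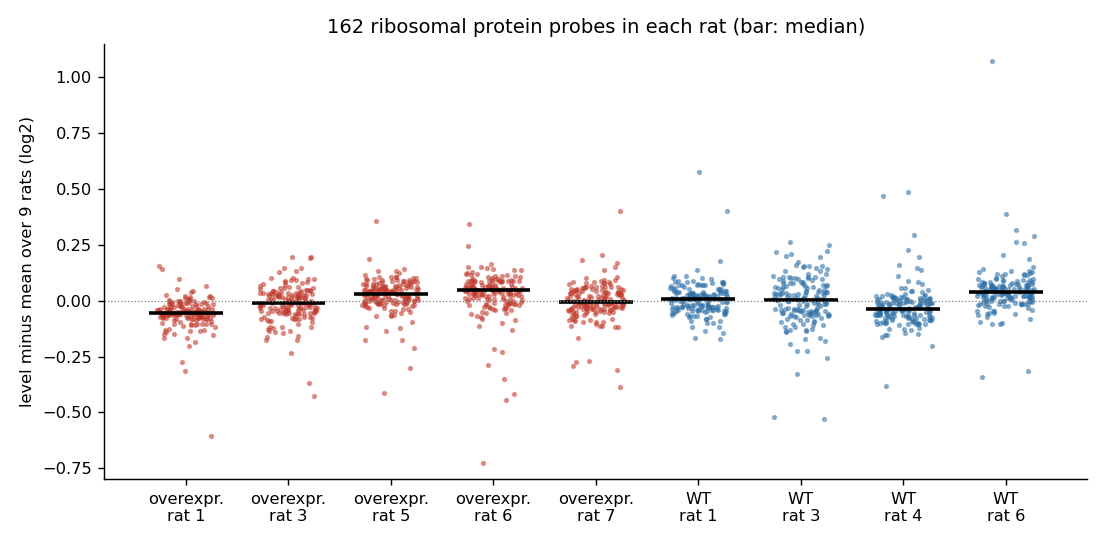
Level of each of the 162 tested ribosomal protein probes minus its mean over the 9 rats (y axis, log2), by rat, with overexpressing rats in red at the left and WT rats in blue at the right; each point is a probe and the black bar is the rat's median. The median bar of overexpressing rat 1 is at -0.055 and that of overexpressing rat 6 at 0.046, while WT rats run from -0.036 to 0.040.

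Probes of the same gene did not always tell the same story. Of the 96 names, 52 had more than 1 tested probe, and the differences of their probes had opposite signs for 22 of them. The widest spread of differences within a gene was 0.439, between the 2 Rps4y2 probes. Levels of probes of a gene lay more than 1 log2 unit apart for 28 names, among them Rpl6, Rpl8, Rpl10, Rpl10l, Rpl11, Rpl12, Rpl14, Rpl21, Rpl22l1, Rpl24, Rpl27, Rpl28, Rpl32, Rpl35, Rpl36a, Rpl37, Rpl37a, Rpl38, Rps2, Rps4y2, Rps15, Rps15a, Rps16, Rps23 and Rpsa. Rpl37a, a large subunit zinc finger protein, had probes at 7.25, 5.64 and -4.15, and the dim one gave a difference of -0.17 with a 95% interval from -0.65 to 0.31. Rps16 had probes at 5.78 and -0.15 with differences of -0.023 and 0.072.

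Named by signal alone were Rpl41, Rplp0, Rps29 and Rpl24 among the brightest probes and Rpl37a, Rpl15, Rpl22l1, Rpl10l and Rps16 among the dimmest. Rpl41, which codes for a very short basic peptide, differed by -0.0021 at a level of 8.10, and the Rps29 probe by 0.00016. The bright probe of Rpl24, a large subunit protein at the subunit interface, differed by 0.11.

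Several member probes read far lower in overexpressing rat 6 than in the other rats. These were picked out after their values were seen. The Rpl19 probe A_64_P029701 read 6.64, 6.99, 7.15, 6.07 and 7.20 in overexpressing rats 1, 3, 5, 6 and 7, and 6.75, 6.74, 6.72 and 6.89 in WT rats 1, 3, 4 and 6. Overexpressing rat 6 was lowest there, and overexpressing rats 3, 5 and 7 lay above every WT rat. For the other Rpl19 probe overexpressing rat 6 was the highest of all rats, at 6.55. The Rps14 probe A_64_P003090 read 5.09 in overexpressing rat 6 and between 5.53 and 5.65 in every other rat, and the other 2 Rps14 probes placed this rat at 5.38 and 5.01, within or above the range of the rest. Rpl36al, related to Rpl36a, was also lowest in overexpressing rat 6, at 3.27 against 3.62 to 3.82 elsewhere, and has no second probe.

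RefSeq's rat table, assembly GRCr8, helps place these probes. By accession, 142 of the 168 probes matched a gene, 137 of them under the same name. The table lists 908 pseudogenes of ribosomal proteins, and 80 of the 96 names have at least 1, with up to 36 for Rps2. Rps4y2, Rpl10l, Rpl3l and Rpl30l1 have no listed pseudogene, while Rpl36 has 11 and Rps4x 12. Pseudogenes were counted under a gene's own name, and those of a related gene are not in its count. Rpl10 has 14 and Rpl30 has 12. In rn4, 30 of the 168 probes span an exon junction. A processed copy has no introns, so probes with or without a junction could read it, and which copies contribute to a spot was not tested.

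Ribosomal proteins are made and used with other factors, whose genes were compared in the same rats. The lists took 1 probe per gene, and no member of any list passed the adjusted threshold of 0.05. Initiation factors had 24 higher and 18 lower of 42 tested, with a median difference of 0.013, and elongation factors 6 higher and 3 lower of 9, with a median of 0.037. Ribosome biogenesis genes had 27 higher and 26 lower of 53 tested, with a median of 0.0023. Mitochondrial ribosomal proteins, coded in the nucleus and built into the separate ribosome of mitochondria, had 32 higher and 38 lower of 70, with a median of -0.0063. At an unadjusted limma p under 0.05 these lists held 2, 0, 3 and 3 genes in that order, or 4.76%, 0%, 5.66% and 4.29%, beside 9.2% of all probes tested.

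The widest difference each way in each of these lists is given here, and none passed the adjusted threshold. Among initiation factors Eif5b, which joins the subunits, differed by -0.14 and Pabpc4, a poly(A) binding protein, by 0.12. The list of elongation factors also takes in genes that are not such factors themselves. In it Tpt1 differed by -0.077 and Eef2k, the kinase that slows elongation, by 0.098. Rrn3, which brings RNA polymerase I to ribosomal DNA, averaged -5.07 ± 0.172 in overexpressing rats and -5.51 ± 0.557 in WT rats (SD, n = 5 and 4), and Polr1e, a subunit of that polymerase, averaged -3.75 ± 0.904 in overexpressing rats and -3.07 ± 0.076 in WT rats. The Rrn3 difference of 0.44 was 0.17 without WT rat 6, and the Polr1e difference of -0.68 was -0.34 without overexpressing rat 6. Mrps7 averaged 2.93 ± 0.124 in overexpressing rats and 3.13 ± 0.084 in WT rats, a difference of -0.21 with an adjusted limma p of 0.470, and Mrpl43 differed by 0.45 with an SD of 1.31 in overexpressing rats and by -0.14 without overexpressing rat 6.

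Genes of mTORC1 and the S6 kinases, which signal to the ribosome, leaned to one side. Of 23 tested, 19 were higher (82.6%) and 4 lower, beside 46.5% higher of all probes tested. The median difference was 0.062, beside -0.0094 over all probes tested. All these genes were read in the same 9 rats, and the lean was not tested. None passed the adjusted threshold, and 2 (8.70%) had an unadjusted limma p under 0.05. Ddit4, an inhibitor of mTORC1 induced by stress, averaged 1.78 ± 0.326 in overexpressing rats and 1.40 ± 0.199 in WT rats (SD, n = 5 and 4), with an adjusted limma p of 0.542. Deptor, another inhibitor, averaged -2.26 ± 0.511 in overexpressing rats and -1.91 ± 0.287 in WT rats, with an adjusted limma p of 0.674.

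**Figure D5:**
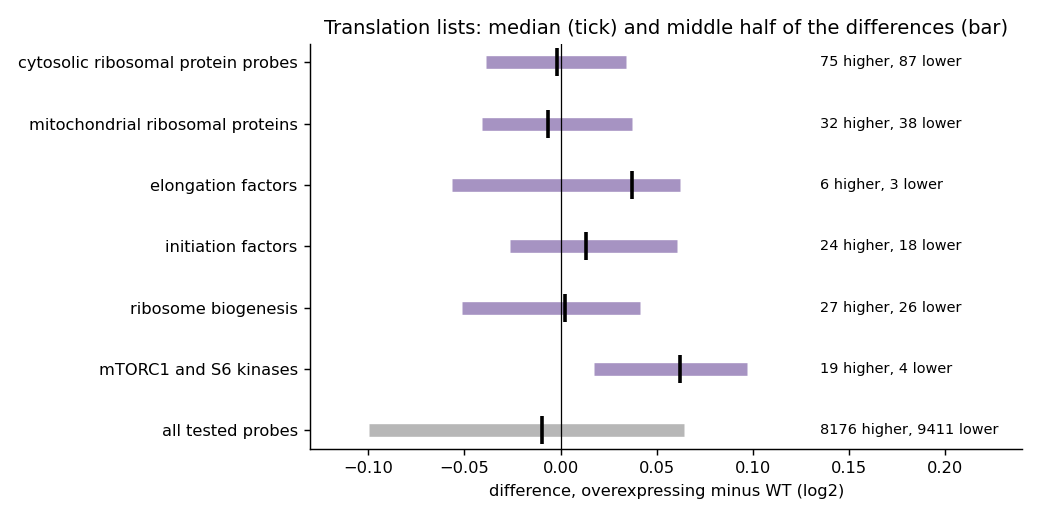
Differences between overexpressing and WT rats (x axis, log2) for the ribosomal protein probes, 5 lists of other translation genes and all tested probes; the tick is the median, the bar spans the middle 50% of the differences, and the numbers count those higher and lower. The ribosomal protein bar runs from -0.039 to 0.034 around a median of -0.0018, and the bar of mTORC1 and S6 kinases lies above 0.

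The start sites show what the members share in sequence. A promoter sequence was found in RefSeq's table (GRCr8) for 75 of the 96 names. In the window of 15 bases before and 15 after the annotated start, a run of at least 8 pyrimidines stood on the gene's strand in 43 of 75 members (57.3%), against 11.4% of all 33469 promoters in the table. On the opposite strand the shares were 1.33% of members and 13.04% of all. CTTTCC stood on the gene's strand in 15 members (20%) and 1.24% of all promoters, and on the opposite strand in 1.33% of members and 1.297% of all; it overlaps the pyrimidine runs. The median of the longest run was 9 bases in members and 4 in all promoters.

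The windows of genes described above are given here on the strand of the gene, with the longest pyrimidine run near the annotated start in capitals. Coordinates are those of GRCr8.
Rpl13a: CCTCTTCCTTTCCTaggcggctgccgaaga
Rpl10: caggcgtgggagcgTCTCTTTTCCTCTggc
Rplp1: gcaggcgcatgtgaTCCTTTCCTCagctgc
Rpl38: cttcgTTCTTTTTCCgttgttcggtgctcg
Rps7: tcgcgagagctgtgTCTCTTTCTaagccgg
Rps4y2: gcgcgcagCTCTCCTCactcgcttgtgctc
Rps4x: tccagcgcgcgcagCCTCCgaccctaattt
Rpl3l: gacctctggtgcctggtggggaggTCCCTT
These lie at chr1:104748899-104748928 (Rpl13a, minus strand), chrX:157205835-157205864 (Rpl10, plus), chr8:71290858-71290887 (Rplp1, minus), chr10:100200420-100200449 (Rpl38, plus), chr6:50999431-50999460 (Rps7, minus), chr4:183000898-183000927 (Rps4y2, plus), chrX:71342907-71342936 (Rps4x, minus) and chr10:14258431-14258460 (Rpl3l, plus). Rpl13a, Rpl10, Rplp1 and Rpl38 carry runs of 14, 13, 10 and 10 pyrimidines, and Rps7 and Rps4y2 runs of 9 and 8. Rps4x and Rpl3l have runs of 5 and 6 at most in this window. The runs of Rpl13a and Rpl38 lie wholly before the annotated start. Whether the mRNA of any of these genes begins with its run depends on the exact start site and was not tested. The differences of these genes between overexpressing and WT rats are given above, and the windows were not set against them in any test.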

How the data were processed

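Per the labels' protocols, total RNA of left ventricle was labelled with Cy3 and hybridized to Agilent arrays, and per the file headers the scans were read with Agilent Feature Extraction 10.7.1.1 on the rat build rn4. The deposited scanner files hold spot intensity. Their processed signal is background-subtracted, per the file headers, with no scaling between arrays recorded there. The authors' deposited series table holds natural log (ln) values of 20000 probes that follow the spot mean signal; its scaling between arrays is not stated, and it was used only as an alternative.

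Here log2 of the processed signal was taken minus each array's 75th percentile, spots of a probe were averaged, repeated labelings of a rat were averaged, and 5 overexpressing rats were compared with 4 WT rats. Overexpressing heart 4 and WT heart 5 were left out of the tests. Probes well above background in at least 4 of 9 rats were tested with limma 3.58.1 (R 4.3.3, lmFit and eBayes, no covariate), adjusted by Benjamini-Hochberg over all of them at a threshold of 0.05, with exact permutation of the rats for single probes. The fit was tested on simulated data. The samples carry no depth. Named were the 5 widest differences each way, the brightest and dimmest 5 probes, 3 lists of members (related copies, stalk and mRNA channel, work outside the ribosome), genes whose probes lie over 1 log2 unit apart, and from each other list the widest difference each way; some named genes are not reported here. The members and lists were chosen with earlier results of these data known. Levels by rat were tested for outlying values, and alternatives covered background correction, scaling, filters, slide, scan day, heart number and each rat left out.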

Additional observations from a re-analysis of the deposited data

Results flagged for a closer look

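In each of the 2 groups, single rats were compared with the rest of their group for the 10 probes with the widest differences and the tested probes of the 3 member lists, and 11 of 126 such sets had a rat whose gap to its nearest neighbour took most of the group's range. Chance gives about 1 in 20. The Rpl10l probe A_64_P085645 read 0.632 in WT rat 3, against 1.46 to 1.56 in the other WT rats. Rpl3 read 4.42 in overexpressing rat 6, against 4.01 to 4.09 in the other overexpressing rats. The same rat read 3.77 for the Rpl12 probe A_64_P071825, against 3.36 to 3.40 in its group, and 5.68 for the Rps19 probe A_64_P107623, against 5.54 to 5.57.

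Overexpressing rat 1, in which most members were low, read 5.36 for the Rpl32 probe A_64_P265660, against 5.58 to 5.64 in its group, and 5.52 for Rpl4, against 5.57 to 5.58. WT rat 4 read 3.68 for Rpl36al, against 3.75 to 3.76 in the other WT rats, 6.25 for Rplp1, against 6.28 in each of them, and 6.42 for the Rps27 probe A_64_P049885, against 6.47. WT rat 6 read 5.66 for the Rps27a probe A_64_P367214, against 5.59 to 5.60. WT rat 3 read 6.28 for the Rps3 probe A_64_P057441, against 6.31 to 6.32. In the WT sets of Rpl36al, Rplp1, Rps27, Rps27a and Rps3 the other rats lay so close together that a small gap was enough.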

How the results depend on the processing

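The count of ribosomal protein probes past the adjusted threshold was 0 under the main setting and under all 22 alternatives. The count over all probes, 1 in the main setting, was 0 for rats 1, 3 and 6 with the heart number as a replicate block and 0 for the same rats without it, 0 with slide as a block, 2 after normexp with quantile normalization, 6 with a trended robust variance, and between 0 and 14 when single rats were left out, with 14 without overexpressing rat 3; the cause was not tested. The median member difference of -0.0018 lay between -0.021 and 0.040 over all settings; with the replicate block it was -0.021, and with median scaling it was 0.0397, beside 0.032 over all probes, with 123 of 162 members higher in place of 75. The heart numbers share no stated animal or day, and same-numbered rats correlated at 0.115, 0.035 and 0.116, so the numbers were not taken as pairs. For the 10 probes with the widest differences none of 217 alternative values changed sign, and the smallest adjusted p was 0.338. Among 63 other probes, those of the 3 member lists and the genes named from the other translation lists, 31 of 1358 alternative values moved by at least the spread between rats. Probes named by signal or by the gap between probes of a gene were not run under the alternatives. The 5 and 4 rats limit these comparisons.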
